A study of Mus musculus with 12 samples.

Results

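Of the 12 libraries of ribosome-bound mRNA in this series, 3 held far more RNA of blood vessel cells than the other 9. They were chosen by one value, the CPM (a gene's reads scaled to a common library total, from which the ribosomal RNA gene Rn45s was left out) of Cdh5, which encodes VE-cadherin, the adhesion molecule of endothelial junctions. Libraries with at least 300 CPM of Cdh5 are called endothelial-rich below and the other 9 endothelial-poor. The rich libraries are replicates 4 and 5 of the 7 B16F10 libraries and replicate 3 of the 5 B16F0 libraries, and values of the rich libraries are given in that order throughout.

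The series set the highly metastatic mouse melanoma line B16F10 beside the poorly metastatic line B16F0, each grown for 12 days under the skin of C57BL/6 mice. All hosts, of both groups, were Rpl22fl/flHA;Cdh5(PAC)-CreERT2 and received tamoxifen, which activates a Cre recombinase driven by the Cdh5 promoter, so that endothelial cells make the ribosomal protein Rpl22 with an HA tag and their ribosomes can be precipitated with the mRNA they carry. Labels state no age, sex or tamoxifen dose of the hosts, and no host without the tag. Nor do they tie a replicate to an animal, and any p-value given here therefore reflects library-to-library spread, which may be technical. Since each precipitate is a bulk sample, fewer cells of a type and less RNA per cell cannot be told apart.

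Endothelial cells line all vessels, and in tumours those at the front of a sprout (tip cells) answer to VEGF through the receptor Kdr, while Notch signalling between neighbours restrains further sprouting. Behind the front, vessels are stabilised by TIE receptors, by a basement membrane of collagen IV and laminin and by pericytes. Melanoma cells, the bulk of these tumours, are marked by the enzymes and structural proteins of pigment granules.

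Cdh5 stood at 749, 532 and 778 CPM in the rich libraries and at 78.4 to 210.5 CPM (median 150.02) in the poor ones. The lowest value inside the threshold was 532 CPM in B16F10 replicate 5, and the highest outside it was 210.5 CPM in B16F0 replicate 1. Pecam1, a platelet and endothelial adhesion molecule that the rule did not use, was at 602, 395 and 668 CPM against 72.7 to 152 CPM (median 118). Kdr, the main VEGF receptor of endothelium, reached 1027, 512 and 1015 CPM against 82.4 to 218 CPM (median 141). For all 3 genes each rich library was above each poor one, and the rich library of replicate 5 was the lowest of the 3. The fitted differences, on the log2 scale with standard errors, were 2.23 ± 0.25 for Cdh5, 2.10 ± 0.22 for Pecam1 and 2.49 ± 0.26 for Kdr. Rpl22, the tagged gene itself, was at 229, 234 and 241 CPM against 217 to 415 CPM (median 268), and these ranges overlapped.

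**Figure D1:**
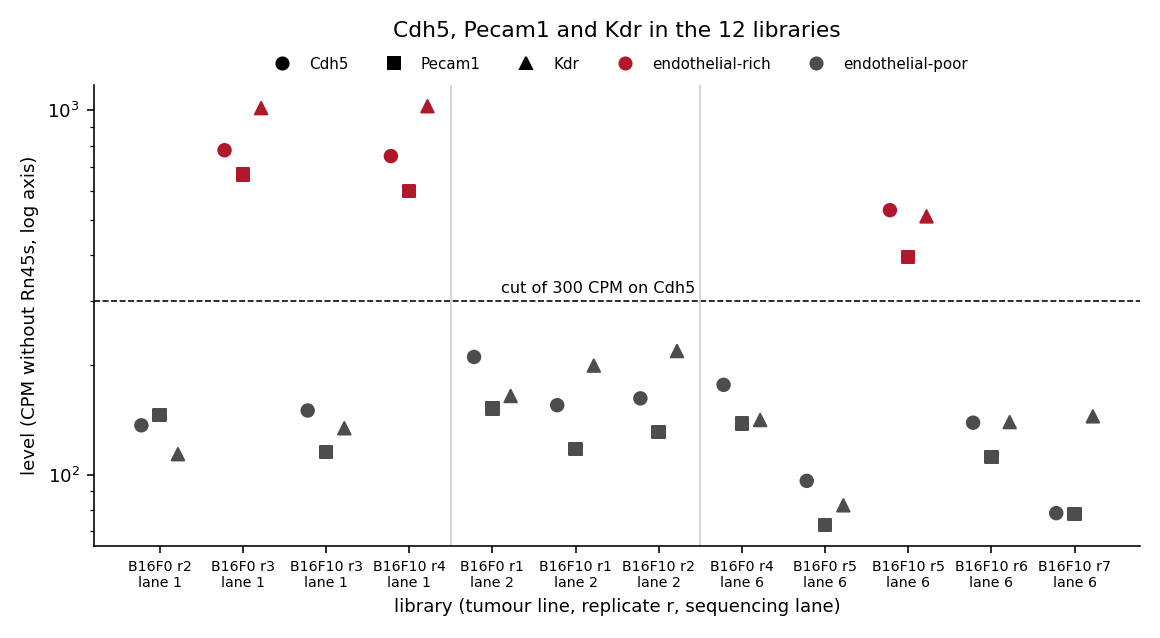
CPM of Cdh5, Pecam1 and Kdr in each of the 12 libraries, ordered by lane, on a log axis, with endothelial-rich and endothelial-poor libraries marked by colour and the threshold of 300 CPM drawn as a dashed line. The 3 rich libraries lie above all 9 poor ones for each gene, with a gap between 210.5 and 532 CPM for Cdh5.

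Library names give the sequencing lane, and the rich libraries were spread unevenly over it. Lane 1 held 2 rich libraries (B16F10 replicate 4 and B16F0 replicate 3) of 4, lane 6 held 1 (B16F10 replicate 5) of 5, and lane 2 held none of 3. The 2 rich libraries of lane 1 also share a name prefix that no other library has, so within lane 1 that prefix and vessel content cannot be told apart. Totals were 5322510 to 20569186 reads over the 12 libraries, and 8061601, 11377215 and 11549579 in the rich ones. Rn45s took 31.4% of reads in B16F10 replicate 5, 8.91% in the poor library B16F0 replicate 5 and 0.022% to 1.75% in the others. Reads over 1494 olfactory, vomeronasal and taste receptor genes, a gauge of reads from outside expressed genes, summed to 177, 339 and 76.8 CPM in the rich libraries. The same sum ran from 10.6 to 959 CPM in the poor ones, highest in B16F10 replicates 1 and 2. Ddx3y, a gene of the Y chromosome, was at 8.47 to 79.5 CPM in 7 libraries and at 0 to 0.183 CPM in the other 5. In the rich libraries it stood at 0.125, 32.3 and 79.5 CPM, and all 5 libraries of lane 6 were among the 7 that held it. Xist, a gene of the X chromosome, went the other way, at 0.461 to 7.42 CPM in those 7 libraries and 10.2 to 353 CPM in the other 5. The rich libraries had 25.9, 3.07 and 1.13 CPM of Xist. The library names of lanes 1 and 2 carry an F or an M before the tumour line, with no meaning stated, and the M libraries (B16F10 replicate 2 and B16F0 replicate 3) were the 2 of those lanes that held Ddx3y. The part of these library differences in the results was not tested.

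The rich libraries were then compared with the poor ones over all genes, with sequencing lane and tumour line in the model (edgeR, 15093 genes tested). A gene is called here when its adjusted p was under 0.05 and its difference at least 2-fold. Since the libraries were sorted on a gene of this same comparison, the calls describe how the 2 sets differ and are no independent test. Of the tested genes 529 (3.5%) were called higher in the rich libraries and 28 (0.186%) lower. In 648 genes (4.29%) all 3 rich libraries were above all 9 poor ones, and in 81 (0.537%) they were all below. The median difference over all tested genes was 0.03 on the log2 scale. Together the 529 genes took 4.30% to 6.06% of reads in the rich libraries and 1.27% to 2.02% in the poor ones. Of the 529, 93 belong to lists of vessel genes and 429 to none of the 29 lists compiled for this comparison. These lists were chosen with earlier results of these data known. The share of all tested genes on them was not counted, so 93 cannot be read as many or few. The number of higher genes depended on single libraries: it was 332 without B16F0 replicate 3, 340 without B16F10 replicate 3, 949 without B16F10 replicate 5 and 1081 without B16F0 replicate 1. Without the 2 rich libraries of the shared prefix it was 238, of which 208 were among the 529.

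The widest differences were led by Col13a1, Aplnr and Adamts9. Col13a1, a collagen that spans the cell membrane, was at 71.1, 51.1 and 58.9 CPM in the rich libraries and 3.57 to 7.31 CPM (median 5.596) in the poor ones, a log2 difference of 3.47 ± 0.19. Aplnr, the receptor of the vessel growth peptide apelin, was at 118, 113 and 122 CPM against 6.73 to 29.6 CPM (median 17.4), a log2 difference of 2.95 ± 0.28. Adamts9, a secreted protease of the extracellular matrix, was at 114, 99.8 and 80.6 CPM against 7.62 to 42.8 CPM (median 16.4), a log2 difference of 2.85 ± 0.35. No value of these genes in a rich library fell within the range of the poor ones, though Adamts9 was also raised in the poor B16F10 replicates 1 and 2, at 42.8 and 36.6 CPM. Notch4, the Notch receptor found mainly on endothelium, was at 203, 251 and 168 CPM against 17.1 to 74.8 CPM (median 42.6), a log2 difference of 2.84 ± 0.25. Dll1, a Notch ligand, was at 25.1, 13.7 and 18.6 CPM against 1.21 to 7.06 CPM (median 3.37), a log2 difference of 2.80 ± 0.22. Dysf, whose product dysferlin repairs cell membranes, was at 159.96, 193 and 179.6 CPM against 12.6 to 71.6 CPM (median 30.7), a log2 difference of 2.78 ± 0.38. For Notch4 and Dysf the highest of the 3 was B16F10 replicate 5, the library with the lowest Cdh5 of the 3, whereas Dll1 was lowest there. Arhgef15, a guanine nucleotide exchange factor known from endothelial cells, was at 72.1, 76.5 and 74.5 CPM against 8.24 to 19.5 CPM (median 13.3), a log2 difference of 2.62 ± 0.18. Rasip1, which endothelial cells need to open a vessel lumen, was at 94.98, 74.3 and 94.3 CPM against 9.29 to 20.6 CPM (median 16.2), a log2 difference of 2.50 ± 0.20. Flt1, the decoy-like VEGF receptor 1, was at 569, 307 and 539 CPM against 48.5 to 178 CPM (median 87.95), a log2 difference of 2.58 ± 0.36. Others of the 15 largest differences were Kdr, the GTPase regulator Arap3 (2.45 ± 0.21), the glycosyltransferase Galnt18 (2.50 ± 0.20), Wscd1 (2.56 ± 0.43), Ltbp4, which tethers latent TGF-beta in the matrix (2.44 ± 0.31), and Olfml2a (2.44 ± 0.48). In each of the 15 the rich libraries were all above the poor ones, as the rule for naming them required, and 14 were called with any 1 library left out. Olfml2a was not called without B16F10 replicate 3 or without B16F10 replicate 5.

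The promoters of Notch4 and Rasip1 are printed because ETS factors, among them the endothelial Erg and Fli1, are known regulators of vessel genes, and each window holds the ETS motif CAGGAAG once. On mm10 Notch4 lies on chr17 from 34564268 to 34588503 and Rasip1 on chr7 from 45627488 to 45639093, both on the plus strand (GENCODE M21). Shown 5′ to 3′ are chr17:34564045-34564267 and chr7:45627287-45627487, the bases of the RefSeq promoter windows (GRCm38.p6) that lie before the annotated gene, with the motif's reverse complement CTTCCTG in capitals.
Notch4: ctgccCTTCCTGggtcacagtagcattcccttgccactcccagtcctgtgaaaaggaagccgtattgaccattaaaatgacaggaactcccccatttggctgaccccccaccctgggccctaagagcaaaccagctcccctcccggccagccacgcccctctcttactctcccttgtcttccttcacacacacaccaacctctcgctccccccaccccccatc
Rasip1: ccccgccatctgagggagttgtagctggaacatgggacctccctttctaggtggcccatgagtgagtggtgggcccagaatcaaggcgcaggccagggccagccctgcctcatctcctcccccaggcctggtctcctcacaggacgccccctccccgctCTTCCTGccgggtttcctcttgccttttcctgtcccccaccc
RefSeq promoters could be matched by symbol for 360 of the 529 higher genes and 11345 of the 15093 tested genes. In the 250 bases before the start, CAGGAAG on either strand was present in 48 of the 360 (13.3%) and in 9.86% of all 11345. The related ETS motif CCGGAAG, which shares the letters GGAAG, was present in 13 of the 360 (3.61%) and in 12.5% of all. For the other motifs searched on both strands the 2 shares were 5.28% and 6.41% for the SOX motif ACAATG, 7.78% and 7.31% for the KLF motif GGGTGTG, and 5.56% and 6.25% for the GATA motif AGATAA. A match describes the letters only, and no factor binding was measured.

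Nearly all genes that mark endothelium in general were higher in the rich libraries. Of 29 tested pan-endothelial genes 27 were called higher, 26 had all rich libraries above all poor ones, and the median difference was 1.94 on the log2 scale. The list holds Cdh5, whose place was fixed by the sorting, and without it 26 of 28 were called and 25 kept the sets apart. Tie1, an endothelial receptor kinase, was at 225, 167 and 197 CPM against 20.1 to 57.6 CPM (median 36.6), a log2 difference of 2.16 ± 0.21. Its relative Tek, the receptor of the angiopoietins, was at 74.9, 56.9 and 89.6 CPM against 7.03 to 27.4 CPM (median 17.7), a log2 difference of 2.16 ± 0.30. Robo4, an endothelial receptor that stabilises vessels, was at 179.96, 139 and 175 CPM against 26.1 to 42.03 CPM (median 35.1), a log2 difference of 2.02 ± 0.15. These receptors separated the 2 sets in every library. The 2 members not called were Eng, a TGF-beta co-receptor, at 155, 132 and 184 CPM against 46.5 to 107 CPM (median 74.3), and the transcription factor Tal1, at 11.4, 7.69 and 11.8 CPM against 3.55 to 8.23 CPM (median 5.37). Eng did not overlap between the sets, but its difference of 0.95 ± 0.18 fell short of 2-fold, while Tal1 overlapped. Ptprb, the phosphatase that acts on Tek, was called with overlapping sets, since 2 poor B16F0 libraries reached 441 and 433 CPM against 542, 296 and 751 CPM. Summed over the list without Cdh5, the rich libraries held 4989, 3285 and 5339 CPM and the poor ones 740.2 to 1382 CPM (median 1141). Without the 2 rich libraries of the shared prefix 18 members were called higher.

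Genes of sprouting vessels were also higher: 18 of 21 tip cell and sprouting genes were called higher, all 21 differences were positive, and the median was 1.86. Plvap, which forms the diaphragms of fenestrated endothelium, was at 616, 346 and 634 CPM against 35.1 to 168 CPM (median 78.4), a log2 difference of 2.18 ± 0.28. Apln, the ligand of Aplnr, was at 342, 239.9 and 356 CPM against 46.5 to 104 CPM (median 68.3), a log2 difference of 2.11 ± 0.24. Esm1, a secreted proteoglycan of tip cells, was at 1207, 531 and 1239 CPM against 115 to 342 CPM (median 222), a log2 difference of 1.61 ± 0.24. In Plvap and Esm1 the B16F10 replicate 5 library stood well below the other 2 rich ones but above all poor ones. The same order held for Angpt2, which loosens vessels for remodelling, at 619, 219 and 703 CPM against 110.2 to 181 CPM (median 129), a log2 difference of 1.44 ± 0.25. Igfbp3, a binding protein of insulin-like growth factors, was at 3377, 1267 and 3837 CPM against 232 to 966 CPM (median 655), a log2 difference of 1.77 ± 0.37. Not called were Pgf (0.95 ± 0.28), Lama4 (0.81 ± 0.20) and Adm (0.40 ± 0.23). With only B16F10 replicate 5 as the rich set, 8 of the 21 were called.

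Arterial genes were called in 11 of 15 cases (median 2.02) and venous ones in 4 of 10 (median 1.19), and the difference between the 2 lists was not tested. Dll4, the Notch ligand of tip and arterial cells, was at 108, 95.7 and 116 CPM against 14.7 to 45.8 CPM (median 22.4), a log2 difference of 2.27 ± 0.23. Efnb2, the arterial ephrin, was at 166, 107 and 142 CPM against 23.6 to 42.9 CPM (median 35.2), a log2 difference of 1.87 ± 0.20. Its venous partner receptor Ephb4 was at 70.6, 82.2 and 69.4 CPM against 27.04 to 55.6 CPM (median 35.5), a log2 difference of 1.13 ± 0.18. All 3 kept the sets apart. Nr2f2, the transcription factor of venous identity, did not differ beyond its error, at 39.6, 54.8 and 25.4 CPM against 26.4 to 49.98 CPM (median 36.3), a log2 difference of 0.09 ± 0.16. Fbln5, an elastic fibre protein on the arterial list, went the other way, with all rich libraries below all poor ones at 174, 199 and 197 CPM against 203 to 388 CPM (median 278), a log2 difference of -0.68 ± 0.21, but was not called.

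Capillary and lipid uptake genes were called higher in 9 of 15 cases (median 1.54). Fabp4, a fatty acid carrier of capillary endothelium and of fat cells, was at 742, 534 and 789.7 CPM against 57.6 to 338 CPM (median 129.96), a log2 difference of 1.91 ± 0.28. Cd36, the fatty acid transporter, was at 358, 198 and 358 CPM against 51.9 to 177 CPM (median 73.98), a log2 difference of 1.45 ± 0.21. Both sets stayed apart for these genes. Of 10 lymphatic genes 1 was called: Flt4, the receptor of VEGF-C, which tumour blood vessels also carry, at 245, 157 and 221 CPM against 26.9 to 67.5 CPM (median 43.7), a log2 difference of 1.86 ± 0.22. Prox1, the factor that specifies lymphatic cells, overlapped at 8.25, 7.94 and 10.2 CPM against 7.22 to 16.5 CPM (median 9.86), a log2 difference of 0.01 ± 0.19. Lyve1, a hyaluronan receptor of lymphatics, was at 9.12, 2.18 and 9.12 CPM against 0.791 to 47.8 CPM (median 4.72) and was highest in a poor library, B16F0 replicate 2.

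**Figure D2:**
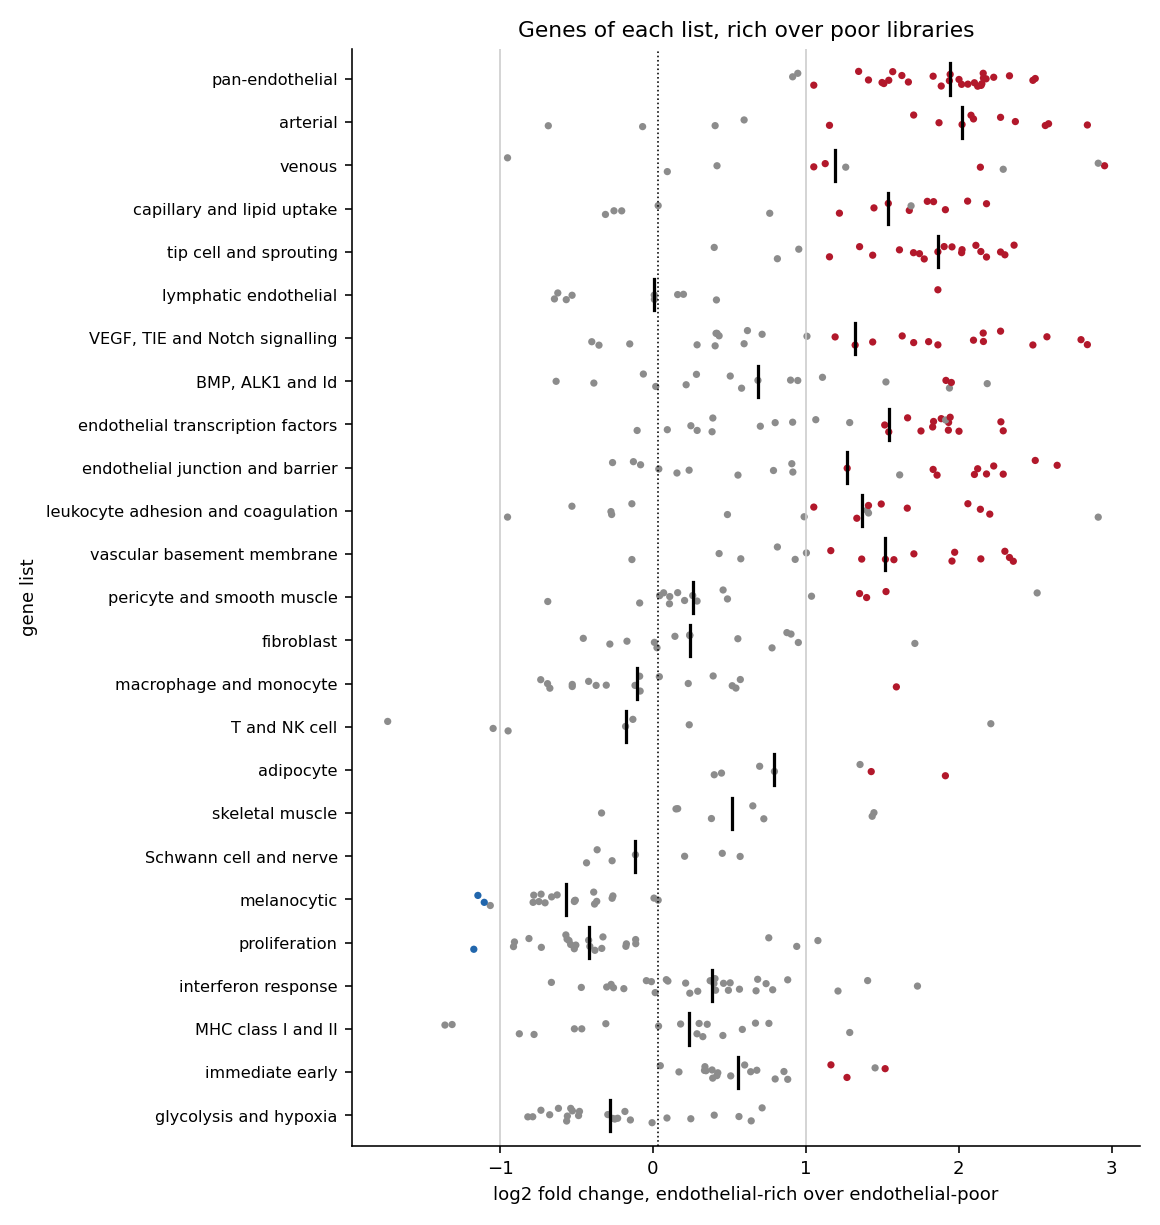
Log2 differences between endothelial-rich and endothelial-poor libraries for the tested genes of each list with at least 5, 1 point per gene, with the list median as a black bar, called higher genes in red and lower ones in blue, the median of all genes dotted and 2-fold differences in grey. Pan-endothelial (27 of 29, with the sorting gene Cdh5), tip cell (18 of 21) and arterial (11 of 15) genes lie mostly above a 2-fold difference, while 18 of the 20 melanocytic genes lie below 0.

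Among VEGF, TIE and Notch genes 15 of 27 were called higher (median 1.32), among them the receptors Tek, Tie1, Flt1, Flt4 and Kdr. Notch1, the main endothelial Notch receptor, was at 125, 96.5 and 137 CPM against 27.3 to 54.6 CPM (median 37.04), a log2 difference of 1.63 ± 0.15. Hey1, a transcriptional target of Notch, was at 36.4, 23.8 and 31.0 CPM against 3.27 to 15.9 CPM (median 5.83), a log2 difference of 1.71 ± 0.26. Nrarp, another Notch target that feeds back on the pathway, was at 41.99, 41.4 and 54.9 CPM against 4.49 to 22.3 CPM (median 13.8), a log2 difference of 1.80 ± 0.34. These 3 genes were higher in every rich library than in any poor one, but they were picked after their values were seen. Of the 27 genes 24 had positive and 3 negative differences. Rbpj, also on the list, had log2 differences of -0.49 to -0.35 with 1 library left out and was called in 0 of the 12 fits. The ligand Vegfa, which tumour cells secrete, overlapped at 305, 459.98 and 172 CPM against 72.2 to 432 CPM (median 289), a log2 difference of 0.71 ± 0.35. Of 17 BMP pathway genes 2 were called, although 5 had all rich libraries above the poor ones. Id1, an immediate target of BMP signalling in endothelium, was at 16.2, 17.3 and 18.5 CPM against 1.02 to 6.65 CPM (median 3.48), a log2 difference of 1.92 ± 0.32. Bmpr2, the type II receptor, overlapped at 668, 361 and 746 CPM against 375 to 627 CPM (median 474), a log2 difference of 0.22 ± 0.29.

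Of 25 tested transcription factors of endothelium 13 were called higher (median 1.54). Erg, the ETS factor that maintains endothelial identity, was at 57.99, 35.2 and 65.8 CPM against 5.82 to 17.5 CPM (median 13.9), a log2 difference of 1.89 ± 0.23. Sox18, a SOX factor of vessel development, was at 23.6, 27.2 and 26.6 CPM against 2.12 to 9.02 CPM (median 5.91), a log2 difference of 2.00 ± 0.32. Both lay clear of the poor range. Ets1, an ETS factor that melanoma cells also express, overlapped at 1043, 802 and 962 CPM against 607 to 968 CPM (median 705), a log2 difference of 0.25 ± 0.19. Junction and barrier genes were called in 10 of 21 cases, and in 9 of 20 without the sorting gene Cdh5. Cldn5, the endothelial claudin, was at 71.9, 28.1 and 46.9 CPM against 3.71 to 19.6 CPM (median 6.30), a log2 difference of 2.12 ± 0.30, and Esam, an endothelial adhesion molecule, at 160.3, 140.0 and 149 CPM against 23.4 to 58.7 CPM (median 35.1), a log2 difference of 1.83 ± 0.20. The sets did not overlap in either. Ctnnb1, the beta-catenin of all adherens junctions, overlapped at 2855, 1169 and 2734 CPM against 1211 to 2566 CPM (median 2195), a log2 difference of -0.08 ± 0.21. Of 18 leukocyte adhesion and coagulation genes 8 were called. Thbd, the anticoagulant thrombomodulin, was at 27.2, 29.8 and 28.7 CPM against 1.74 to 13.2 CPM (median 6.50), with no overlap. Vwf, the clotting factor stored by endothelial cells, differed less, at 168, 116 and 105 CPM against 23.9 to 70.98 CPM (median 54.6), a log2 difference of 1.05 ± 0.26. Vcam1, an adhesion molecule of inflamed endothelium, was not called and overlapped at 5.25, 3.71 and 5.30 CPM against 1.02 to 14.5 CPM (median 9.94), a log2 difference of -0.95 ± 0.52.

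Basement membrane genes were called higher in 11 of 17 cases (median 1.52). Col18a1, the collagen that holds the endostatin fragment, was at 619.9, 483 and 685 CPM against 63.9 to 173 CPM (median 90.9), a log2 difference of 2.36 ± 0.18. Col4a1, a main chain of collagen IV, was at 2386, 2325 and 2177 CPM against 364 to 1575 CPM (median 594), a log2 difference of 2.14 ± 0.33. Its partner chain Col4a2 overlapped, because poor B16F10 replicate 1 reached 1200.4 CPM against 1530.01, 1286 and 1147 CPM, a log2 difference of 2.30 ± 0.42. The poor B16F10 replicates 1 and 2 were also the highest poor libraries for Col4a1, at 1575 and 1391 CPM. Fibroblast markers were high in the same 2 libraries, with a summed list level of 2654 and 3029 CPM.

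Markers of other tumour cells were compared in the same way. Among all tested genes 3.5% were called higher, so a short list without calls says little about its cell type. Of 17 tested pericyte and smooth muscle genes 15 had positive differences (median 0.26) and 3 were called higher. These were Mcam, which endothelial cells also carry, and Abcc9 and Kcnj8, which together form a potassium channel of pericytes. Abcc9 was at 299, 97.3 and 277 CPM against 30.5 to 140.5 CPM (median 55.98), a log2 difference of 1.40 ± 0.27, and overlapped between the sets. The defining pericyte genes Pdgfrb, a growth factor receptor, at 10.4, 16.3 and 11.5 CPM against 3.63 to 89.7 CPM (median 10.5), and Rgs5, a regulator of G proteins, at 9.25, 4.61 and 12.5 CPM against 2.55 to 87.9 CPM (median 5.06), were highest in poor B16F10 replicates 1 and 2. No fibroblast gene of 14 was called (median 0.24), and the list summed to 1088, 1248 and 926 CPM in rich and 178 to 3029 CPM (median 523) in poor libraries. Its member Col3a1, a fibrillar collagen, overlapped at 564, 667 and 526 CPM against 65.7 to 1192 CPM (median 186), a log2 difference of 1.71 ± 0.55. The count moved with the model, from 0 to 5 over the settings tried: 5 with the name prefix in place of the lane or in lane 6 alone, 2 without lane 2 or in B16F10 alone, and 1 without B16F0 replicate 1 or without B16F0 replicate 5. Within lane 6 the rich library was above all 4 poor ones in 12 of the 14 genes, beside 43.1% of all genes. Of the 14, 1 had both rich lane 1 libraries above both poor ones and means at least 2-fold apart, beside 13.3% of all genes. Macrophage genes summed to 232, 183 and 204 CPM against 49.99 to 378 CPM (median 239). Cd68, a lysosomal marker of macrophages, was at 6.87, 7.05 and 4.25 CPM against 3.86 to 10.5 CPM (median 8.65), a log2 difference of -0.42 ± 0.30.

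Markers of the remaining cell types gave 2 calls. None was called among 7 tested genes of T and NK cells, 3 of B cells, 4 of neutrophils and mast cells, 4 of red cells and platelets, 3 of keratinocytes, 8 of skeletal muscle or 7 of Schwann cells. With 3.5% of all tested genes called higher, lists this short would hold few or no calls, so their absence says little about these cell types. T and NK cell markers summed to 5.37, 10.8 and 6.86 CPM in rich and 1.90 to 21.95 CPM (median 6.13) in poor libraries, and keratinocyte markers to 12.6, 9.35 and 6.34 CPM and 4.15 to 20.6 CPM (median 7.55). The haemoglobin genes Hba-a1, Hba-a2, Hbb-bs, Hbb-bt, Hbb-b1 and Hbb-b2 were listed at 0 in every library, as was the lymphatic chemokine Ccl21a. Of 7 adipocyte genes 2 were called, Fabp4 and Pparg, the master regulator of fat cells that capillary endothelium also expresses, the second at 10.5, 10.1 and 9.64 CPM against 1.94 to 6.34 CPM (median 3.37), a log2 difference of 1.43 ± 0.30.

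**Figure D3:**
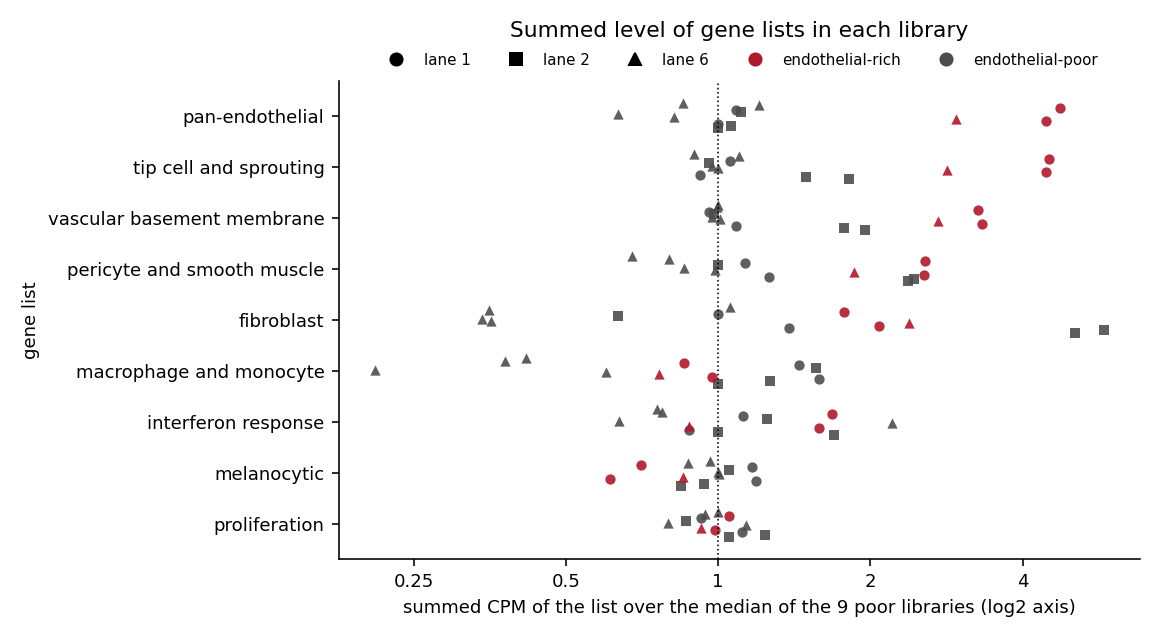
Summed CPM of 9 gene lists in each of the 12 libraries, divided by the median of the 9 poor libraries, on a log2 axis, with 1 point per library coloured as endothelial-rich or endothelial-poor and shaped by lane. The pan-endothelial sum, which includes the sorting gene Cdh5, sets the 3 rich libraries apart (3817 to 6116 CPM against 819 to 1558 CPM), whereas the fibroblast sum is highest in the poor B16F10 replicates 1 and 2.

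Pigment genes were mostly lower in the rich libraries. Of 20 melanocytic genes 18 had negative differences (median -0.57), 4 had all rich libraries below all poor ones and 2 were called lower. With library totals in place of TMM scaling (which raised the median of all genes by 0.10 on the log2 scale), 18 differences were still negative and 1 gene was called. Tyrp1, an enzyme of melanin synthesis, was at 1968, 2326 and 2145 CPM against 2801 to 5940.2 CPM (median 4002), a log2 difference of -1.14 ± 0.22, with no overlap. Slc24a5, an ion exchanger of pigment granules, was called with overlapping values, at 234, 144 and 366 CPM against 279 to 667 CPM (median 317), a log2 difference of -1.10 ± 0.23. Met, the receptor of hepatocyte growth factor, was below all poor libraries at 2742, 2836 and 2463 CPM against 3048 to 5327 CPM (median 3466), a log2 difference of -0.73 ± 0.21, without reaching a call. Dct, another melanin enzyme, overlapped at 4254, 8819 and 4806 CPM against 5452 to 9712 CPM (median 6887), since B16F10 replicate 5 was among the highest of all libraries. The list summed to 15373, 21471 and 17691 CPM in the rich and 21276 to 29842 CPM (median 25165) in the poor libraries, so B16F10 replicate 5 did not stand below them. Without that library 9 members were called lower.

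A 30-base stretch at the start of Tyrp1 (chr4, 80834123 to 80851719, plus strand) is shown because it holds CATGTG, the box recognised by the melanocyte factor MITF, here in capitals at chr4:80834155-80834184 (GRCm38.p6, before the RefSeq start).
Tyrp1: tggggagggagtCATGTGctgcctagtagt
CATGTG on either strand was present in 7.22% of the 360 matched promoters of higher genes and in 7.82% of all 11345.

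The 28 lower genes held only 3 in which the rich libraries were all below the poor ones. Besides Tyrp1 these were Ndufc1, a subunit of mitochondrial complex I, at 32.9, 14.1 and 23.96 CPM against 33.3 to 72.1 CPM (median 40.2), a log2 difference of -1.29 ± 0.31, and the histone gene Hist1h4b, at 6.87, 4.48 and 7.21 CPM against 7.31 to 14.97 CPM (median 10.5), a log2 difference of -1.13 ± 0.25. Histone H4 copies are near-identical, so reads may be shared between them. Of 23 proliferation genes 1 was called lower: Pcna, the sliding clamp of DNA replication, at 48.7, 17.3 and 69.9 CPM against 33.7 to 114 CPM (median 67.5), a log2 difference of -1.17 ± 0.24. Its rich and poor values overlapped. Differences were negative in 20 of the 23 and positive in 3, the kinetochore genes Cenpe (1.08 ± 0.48) and Cenpf (0.76 ± 0.30) and the proliferation marker Mki67 (0.94 ± 0.63). Each of those 3 was called higher in 1 of the 12 fits with a library left out. That fit was without B16F10 replicate 5, at 1.91, 1.33 and 1.89. Over the 23 genes the median difference was -0.67 within lane 1 and 0.18 within lane 6. The count of lower genes was unstable, from 6 without B16F10 replicate 3 to 524 without B16F10 replicate 5, and was 0 without the lane in the model. Tyrp1 was not called without B16F10 replicate 3, B16F10 replicate 4 or B16F0 replicate 3.

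Of 31 interferon response genes none was called (edgeR, median 0.39), nor any of 18 MHC or 24 glycolysis and hypoxia genes. The lanes differed for the interferon list. Of the 31, 13 had both rich lane 1 libraries above both poor ones and means at least 2-fold apart, beside 13.3% of all genes. The median difference in lane 1 was 0.92. In lane 6 the rich library was above all 4 poor ones in 0 of the 31 (median 0.06), beside 43.1% of all genes. Immediate early genes, which stress and handling can induce, were positive in 20 of 20 cases (median 0.55), and Egr1, Dusp1 and Btg2 were called. Btg2, an antiproliferative gene, was at 27.4, 17.2 and 23.96 CPM against 3.61 to 14.3 CPM (median 8.30), a log2 difference of 1.52 ± 0.34, apart in all libraries. Egr1, a zinc finger factor, overlapped at 31.99, 12.6 and 14.2 CPM against 2.76 to 23.5 CPM (median 6.53). With each of the 12 libraries left out in turn, Vwf was still called in 5 of the 12 fits and Ptprb in 7. Egr1, Igfbp3, Ndufc1 and Hist1h4b were called in 8, Btg2 in 9 and Abcc9, Pcna and Pparg in 10. Ephb4, Col4a2 and Zfp423 were called in 11, but Kcnk6 and Dock8 in only 2. Zfp423, Kcnk6 and Dock8 are described below.

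The higher genes could be followed within each lane and tumour line. All 529 were higher in the rich libraries of lane 1 and of lane 6 than in the poor ones of the same lane, with median log2 differences of 1.68 and 1.78. Within B16F10 529 were positive (median 1.58) and within B16F0 527 (median 1.89). These figures share their libraries with the choice of the genes. When genes were instead picked in lane 1 alone, 2014 (13.3%) had both rich libraries above both poor ones and means at least 2-fold apart. In lane 6 the rich library was above all 4 poor ones for 1135 of these (56.4%), against 6507 (43.1%) of all tested genes. Across genes, which are not independent, the differences of the 2 lanes correlated with r = 0.27 over all 15093. In B16F10 replicate 5 the 529 genes had a median 0.26 lower on the log2 scale than the mean of the lane 1 pair, and 350 were lower there.

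**Figure D4:**
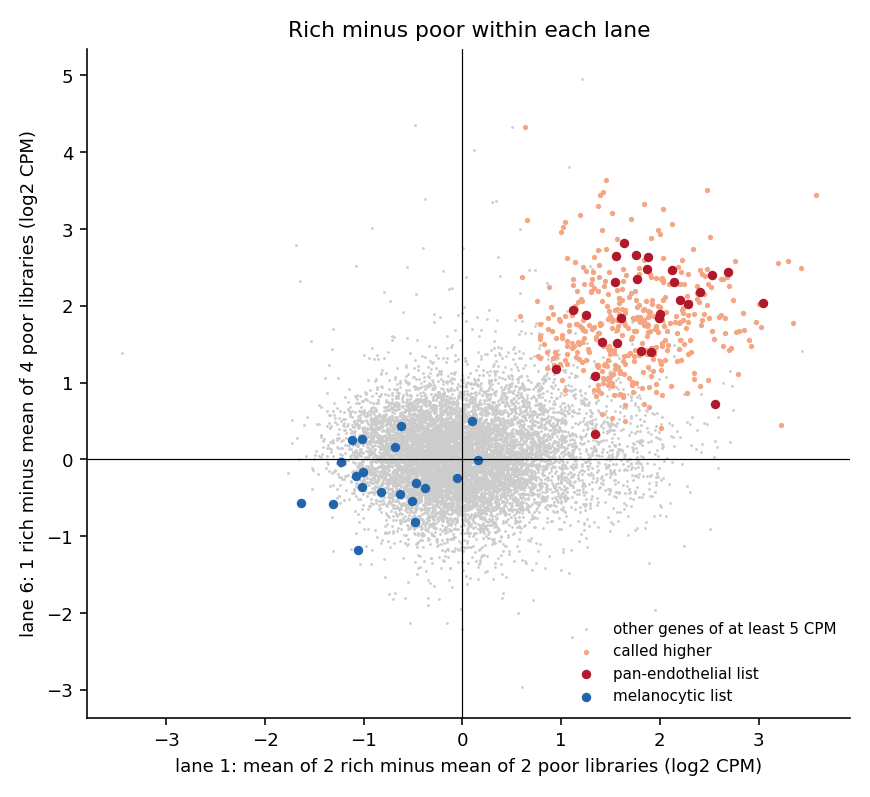
Difference in log2 CPM between rich and poor libraries in lane 6 (vertical axis) against that in lane 1 (horizontal axis) for the 10562 tested genes averaging 5 CPM or more, 1 point per gene, with called higher, pan-endothelial and melanocytic genes coloured. The 428 higher genes shown lie above 0 on both axes, and most melanocytic genes lie left of 0.

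Whether the same genes follow Cdh5 where the rule made no distinction was asked within the 9 poor libraries, over which Cdh5 ran from 78.4 to 210.5 CPM. On log2 values Pecam1 correlated with it (Pearson r = 0.899, exact permutation p = 0.00348, adjusted over 2 relations 0.00696; Spearman rho = 0.733, exact p = 0.0311, adjusted 0.0622; n = 9). The permutations paired all 9 libraries freely, without regard to lane or tumour line, and the adjusted p of rho did not pass the threshold of 0.05. Without the 2 libraries farthest from the median Cdh5, r was 0.578, so its size rested partly on those libraries, and within lanes 2 and 6 it was 0.958 and 0.948 over 3 and 4 libraries. For Kdr r was 0.502 (exact permutation p = 0.169, adjusted 0.169) and rho 0.567 (exact p = 0.121, adjusted 0.121), which does not pass the threshold. Kdr gave r = 0.369 without the 2 farthest libraries, -0.899 within lane 2 and 0.312 within lane 6. Lane 1 held 2 poor libraries, too few for a value.

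A slope of each gene on log2 Cdh5 over these 9 libraries, with lane and line in the model, called none of 11630 genes with edgeR, DESeq2 or limma-voom (smallest adjusted p 0.998 with edgeR). At an unadjusted p under 0.05, 205 genes (1.76%) had a positive slope and 122 (1.05%) a negative one. Of the 529 higher genes 468 had a slope and 294 of them (62.8%) were positive, against 51.5% of all genes, with a median of 0.13 per doubling of Cdh5 against 0.01. In the pan-endothelial list 23 of 27 slopes were positive with a median of 0.50. Myct1, an endothelial membrane protein, had a slope of 1.32 ± 0.37 per doubling. Emcn, the endothelial sialomucin endomucin, had one of 1.06 ± 0.30, and S1pr1, the receptor of sphingosine-1-phosphate, one of 0.74 ± 0.22. No single slope passed adjustment. Arterial genes were positive in 6 of 12 cases (median -0.01) and basement membrane genes in 10 of 17 (median 0.06). Positive slopes were also common in lists with few or no calls above: 28 of 28 interferon genes (median 0.85), 12 of 12 MHC genes (median 1.03) and 13 of 14 macrophage genes (median 0.66). Fibroblast genes were negative in 7 of 7 cases (median -1.35). Proliferation genes, mostly lower in the rich libraries, had positive slopes in 20 of 23 cases (median 0.20). Melanocytic genes, also mostly lower there, had positive slopes in 12 of 20 (median 0.05). Genes of a list share these libraries and are not independent.

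**Figure D5:**
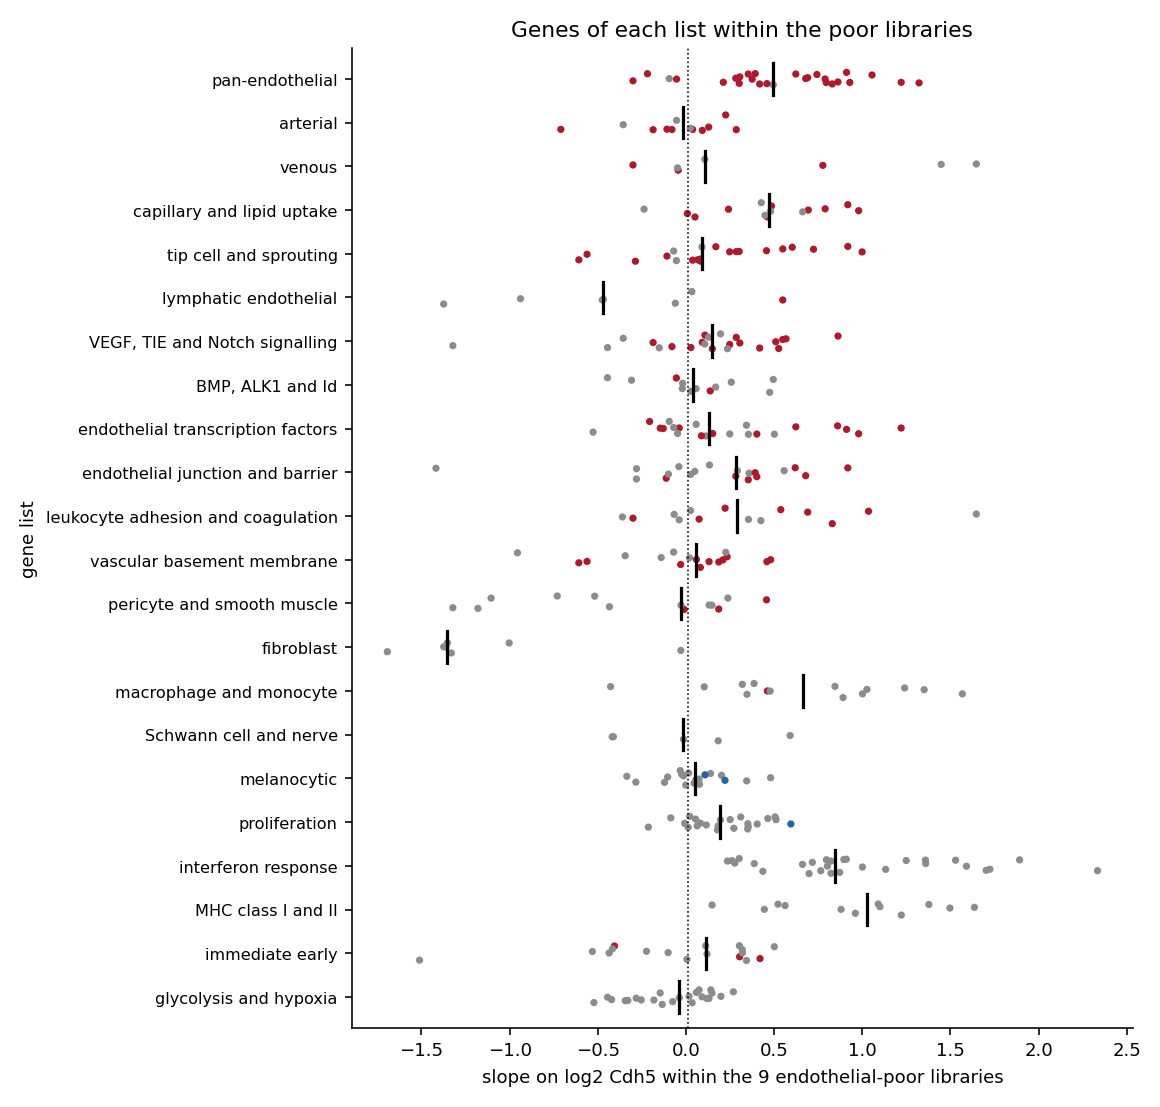
Slopes of list members on log2 Cdh5 within the 9 endothelial-poor libraries, 1 point per gene (coloured if called in the rich against poor comparison) with the list median as a black bar, in log2 units per doubling of Cdh5. Pan-endothelial slopes are positive in 23 of 27 genes, interferon slopes in 28 of 28 and fibroblast slopes in 0 of 7.

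A difference between tumour lines in the response to vessel content was tested as an interaction, in which the single rich B16F0 library stands for its line, so that the B16F0 response has no spread of its own and few calls say little about a difference. No gene of 15093 was called with edgeR (smallest adjusted p 0.963) or limma-voom, 1 with DESeq2, and 296 (1.96%) had an unadjusted p under 0.05. The smallest of all genes belonged to Ift172, a gene of ciliary transport and the one that DESeq2 called, at 85.2, 69.9 and 295 CPM in the rich libraries against 59.9 to 119 CPM (median 91.6), high only in the rich B16F0 library.

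With vessel content held in the model, the lines themselves could be compared for 531 genes, the 529 higher ones plus Eng and Tal1, of which 429 are in none of the lists. At an adjusted p under 0.05 with no minimum fold, edgeR called 458 of all genes (3.03%), 209 higher (1.38%) and 249 lower (1.65%) in B16F10, and 8 of these 531 (1.51%), 4 higher and 4 lower in B16F10. Plau, the urokinase that activates plasmin, was at 33.98, 27.6, 24.7, 72.6, 66.2, 24.7 and 19.3 CPM in B16F10 replicates 1 to 7 and 43.5, 50.7, 117, 47.2 and 37.3 CPM in B16F0 replicates 1 to 5. Among poor libraries all B16F10 values lay below all B16F0 ones, as they did among the rich, and the log2 difference was -0.86 ± 0.13 (edgeR adjusted p = 0.00212). Ptprb was at 128, 140.4, 92.96, 542, 296, 90.2 and 58.6 CPM in B16F10 and 184, 125, 751, 441 and 433 CPM in B16F0, with overlap between the lines (-1.45 ± 0.34, edgeR adjusted p = 0.0346). The potassium channel gene Kcnk6 (-1.08 ± 0.24, adjusted p = 0.0305) and the exchange factor gene Dock8 (-0.57 ± 0.13, adjusted p = 0.0335) were also lower in B16F10. Egr1 was higher, at 23.5, 15.8, 13.1, 31.99, 12.6, 6.53 and 5.37 CPM in B16F10 and 6.71, 3.96, 14.2, 3.69 and 2.76 CPM in B16F0 (1.13 ± 0.19, edgeR adjusted p = 0.00566), again with overlap. Higher too were Ddah2, an enzyme that clears an inhibitor of nitric oxide synthase (0.93 ± 0.19, adjusted p = 0.0182), the zinc finger gene Zfp423 (0.95 ± 0.21, adjusted p = 0.0263) and the pseudokinase gene Trib2 (0.76 ± 0.18, adjusted p = 0.0373). Plau and Egr1 passed with each of the 12 libraries left out in turn, and the other 6 in only 2 to 7 of the 12 fits. Some genes were chosen by hand, with earlier results of these data known. Of these, Slit2, whose secreted product binds ROBO receptors, was at 36.5, 43.95, 22.1, 32.1, 23.8, 25.2 and 27.9 CPM in B16F10 and 2.87, 2.38, 3.91, 2.42 and 3.68 CPM in B16F0. Every B16F10 value lay above every B16F0 one (3.16 ± 0.20, edgeR adjusted p = 2.16e-06), and the difference passed in all 12 fits with a library left out. Between rich and poor libraries Slit2 differed by less than its error, with 0.15 ± 0.23. Robo1, a receptor of Slit2, was at 150.3, 103 and 173 CPM in the rich libraries against 57.7 to 135 CPM (median 83.7), with overlap and a log2 difference of 0.79 ± 0.22 that was not called. Tlr3, a sensor of double-stranded RNA, was at 32.7, 18.7 and 43.4 CPM against 16.03 to 42.6 CPM (median 26.4), a log2 difference of 0.01 ± 0.30.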

How the data were processed

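Whole-number read counts per gene symbol were deposited by the authors for 12 libraries. Cutadapt 1.16, STAR 2.2.1, featureCounts 1.6.0, edgeR, R 3.3.2 were used on mm10, per the submitters' processing notes, which give no settings, and the kit is ScriptSeq per the labels. Which annotation was counted, and whether by strand, is not given in the sources used here. Reads of overlapping, antisense or near-identical genes may be shared. Of 24421 symbols 1069 had no count in any library.

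CPM were computed without Rn45s. Genes were kept by filterByExpr (minimum count 10), scaled by TMM and tested with edgeR 4.0.16 (quasi-likelihood F test, Benjamini-Hochberg adjustment) in R 4.3.3, with lane, line and rich or poor as terms. A standard error is the log2 difference divided by the square root of F. The common biological coefficient of variation was 0.279. Lane differences used log2(CPM + 0.5). The line contrast kept the rich or poor term, and the slope used log2 Cdh5 of the 9 poor libraries. DESeq2 1.42.0 and limma-voom (limma 3.58.1) were alternatives, with other scalings, filters, covariates and left-out libraries. Models were tested on simulated data. Totals from 5322510 reads upward limit most the precision of genes of few CPM.

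Groups came from the labels and lanes from the library names. The members, the 29 gene lists and the rule for named genes were chosen with earlier results of these data known. Named were the 3 marker genes, the 15 largest and 10 smallest differences among called genes with at least 5 CPM and no overlap between the sets (3 lower genes qualified), up to 5 members of each list by level or difference, the smallest p of the interaction and of the line contrast, and 5 genes chosen by hand (Rpl22, Slit2, Tlr3, Robo1 and Robo4). Other list members were picked for their known role after their values were seen. The covariate of receptor reads and 3 of the fits without certain libraries were chosen after seeing the data. No 2 libraries of the same tumour line agreed within sampling noise.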

Additional observations from a re-analysis of the deposited data

Results flagged for a closer look

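Within the 9 endothelial-poor libraries, gene levels, list sums and library measures were searched for a value standing far from its group, in 52 groups, of which chance alone would pick about 1 in 20. In 6 a single library stood apart. B16F0 replicate 2 had the highest sum of capillary and lipid uptake genes, 1524 CPM, of lymphatic genes, 359.9 CPM, and of adipocyte genes, 362 CPM. The capillary and adipocyte sums share Fabp4, at 338 CPM in that library. B16F10 replicate 2 had the highest level of Olfml2a, 9.74 CPM, and the highest sum of skeletal muscle genes, 928 CPM. In B16F0 replicate 5 Rn45s took 8.91% of reads.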

How the results depend on the processing

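Among the named genes followed through the settings, none that was called changed sign. Over all settings the called members ran from 13 to 28 in the pan-endothelial list, 5 to 20 in the tip cell list, 0 to 3 in the pericyte list, 0 to 5 in the fibroblast list and 0 to 9 for lower melanocytic genes. The higher genes (529) numbered 86 with the replicate block in place of the lane, 140 with the sets divided at 200 CPM of Cdh5, 920 without the 2 libraries rich in Rn45s, 840 without lane 2, 1585 in lane 1 alone and 238 without the shared-prefix libraries, and 332 to 1081 with 1 library left out. Of the 529, DESeq2 shared 525, limma-voom 510 and a model with no lane 433. The lower genes (28) numbered 0 with no lane or with the replicate block, 323 with the name prefix as a term, 18 with upper quartile scaling, 11 with library totals, 44 without a filter and with DESeq2, 124 without a minimum fold, 1 with the sets divided at 200 CPM, 2 on log2 Cdh5 over all libraries, 515 without the libraries rich in Rn45s, 123 in B16F10 alone, 577 in lane 1, 402 in lane 6 and 6 to 524 with 1 library left out.

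The interaction called 1 gene with DESeq2 or without a filter and 0 to 1 with 1 library left out. Without B16F0 replicate 3 it could not be fitted. Slopes within the poor libraries stayed at 0 calls in all settings. The line contrast (209 higher, 249 lower) gave 134 lower with no lane in the model, 493 and 540 by DESeq2, 10 and 8 with the replicate block, and 127 to 261 higher and 163 to 480 lower with 1 library left out. Its genes among the 531 (4 higher, 4 lower) gave 1 and 2 with no lane in the model, 11 lower by DESeq2, 9 lower without a filter, 2 lower on log2 Cdh5, 0 and 0 with the replicate block, 7 higher without the rich libraries, 1 higher without lane 2, and 1 to 6 higher and 1 to 11 lower with 1 library left out. The replicate numbers are not a pairing: same-numbered libraries of the 2 lines deviated together in 1 of 5 pairs (r from -0.345 to 0.317). Libraries of the 2 lines with a shared name prefix did deviate together. These were B16F0 replicate 2 with B16F10 replicate 3 (r = 0.856) and B16F0 replicate 3 with B16F10 replicate 4 (r = 0.737), the second pair both rich. B16F0 replicate 1, whose prefix is its own, also followed B16F10 replicate 3 (r = 0.697). The p-values of the line contrast come from a model with the lane but not the prefix. With the replicate block 13 pan-endothelial and 6 tip cell genes were called. Causes were not tested.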
